A study of Homo sapiens with 12 samples.

Results

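The transcripts described here are those of 4 genes whose proteins bind m6A (N6-methyladenosine, the commonest internal modification of mRNA): IGF2BP1, IGF2BP2, IGF2BP3 and HNRNPA2B1. Their members were every interval of 6 deposited m6A peak lists that shared at least 1 bp with the hg19 span of the gene on the gene's own strand. This gave 6 intervals out of 53502 in all lists. IGF2BP2 had 3 of them and IGF2BP3 had 3, and no list held an interval on IGF2BP1 or HNRNPA2B1. The 6 intervals lay at 4 places, all of them in lists whose names carry the word con. With every list cut to the length of the shortest, 4530 intervals with the best scores kept, IGF2BP2 and IGF2BP3 had no interval in any list. Their ranks fixed this outcome, since at least 6416 intervals of the same list scored higher than each of the 6.

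The insulin-like growth factor 2 mRNA-binding proteins (IGF2BPs) are cytoplasmic RNA-binding proteins with KH domains, which bind m6A-bearing mRNAs and are known for protecting bound mRNAs from decay. IGF2BP1 and IGF2BP3 are oncofetal proteins: they are abundant in the embryo, scarce in most adult tissues and made again by many tumours, lung cancers included. IGF2BP2 is found more widely in adult tissues. HNRNPA2B1 is an abundant nuclear protein that takes part in splicing and in the processing of primary microRNAs, and has been described as a nuclear reader of m6A. The lists concern the mark on the transcripts of these readers, not what the readers bind.

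H460, the line used, is an established large cell lung carcinoma line and is labelled as wild-type. The study compared cells given 100 nM rapamycin for 24 h, which inhibits mTORC1 and induces autophagy, with untreated cells, by m6A immunoprecipitation (IP) and input libraries, 3 of each in each arm. The labels do not say whether the replicates were separate cultures. The GEO record ties all 6 peak lists to untreated samples, whereas the names of 3 lists carry rapamycin with the numbers 4, 5 and 6 (called R4, R5 and R6 here) and those of the other 3 carry con with 1, 2 and 3 (C1, C2 and C3). The record ties R5, C1 and C3 to input samples and R4, R6 and C2 to IP samples, although a peak list of this kind needs both. Because the record and the names disagree, R and C stand for the names only. No list was put into an arm, and no test of rapamycin was made. Every list gives 1 value for each measure, without replicates.

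The lists differ in length. Whether length accounts for any absence reported below was not tested. R4 held 4837 intervals, R5 4530 and R6 4899, against 12040 in C1, 14908 in C2 and 12288 in C3. The lowest score was between 70 and 70.08 in every list. Their sequencing depth is unknown. Neither expression of the 4 genes nor the identity of the cell line can be checked from peak lists.

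IGF2BP2 is transcribed from the minus strand of chromosome 3, from 185542844 down to 185361527 in hg19, a span of 181318 bp. It had no interval in R4, R5 and R6, 2 in C1, none in C2 and 1 in C3. The wider place was chr3:185361527-185363411, 1885 bp long, and it was listed with the same first and last base in C1 and C3. Its downstream edge coincided to the base with the 3′ end of the gene span, so it covered the last 1885 bp before the end of the gene. It was absent from C2, the longest list.

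In C1 the terminal IGF2BP2 interval had a score of 205, above 44.4% of that list's intervals, and in C3 it had a score of 317, above 47.8%. The authors' score is one number per interval whose scale is not given, so scores are read here as ranks within a list and are not compared between lists. The terminal interval thus ranked just below the middle of both lists that held it. By width it ranked high: it was wider than 88.5% of intervals in C1 and 86.1% in C3. Intervals of 1885 bp or more made up 18.0% of R4, 15.6% of R5 and 15.0% of R6, against 11.5% of C1, 10.3% of C2 and 13.9% of C3, so intervals this wide were present in all 6 lists.

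The second IGF2BP2 place was chr3:185367191-185367322, 132 bp long, and only C1 held it. It lay 5664 bp before the 3′ end of the span, with 3779 bp between it and the terminal interval. Its score of 82.6 was close to the lowest score of the list and above 8.04% of its intervals. Both IGF2BP2 places were within the last part of the gene, with midpoints at 96.8% and 99.5% of the way from the 5′ end. Together they covered 2017 bp in C1, or 1.11% of the span, and the terminal interval alone covered 1.04% in C3.

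**Figure D1:**
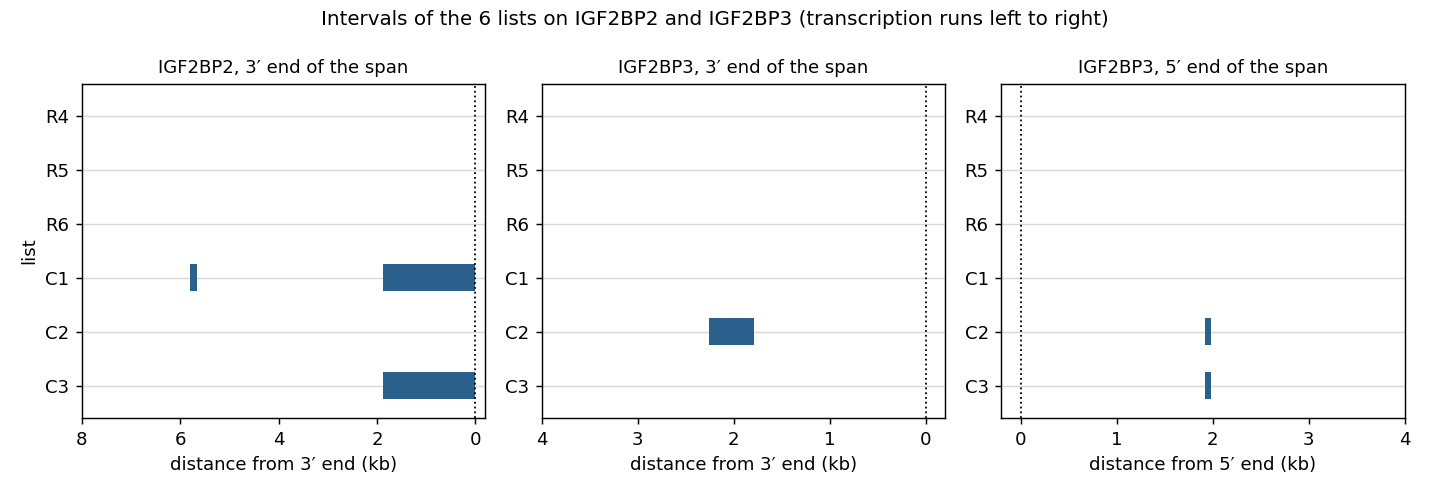
Intervals drawn to scale at the 3′ end of IGF2BP2 and at the 3′ and 5′ ends of IGF2BP3, with one row for each list and the distance in kb from the end of the gene span (dotted line) on the horizontal axis. The bars are the 6 listed intervals; rows R4, R5 and R6 are empty, and the 1885 bp interval of IGF2BP2 ends on the dotted line in both C1 and C3.

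IGF2BP3 is transcribed from the minus strand of chromosome 7, from 23510086 down to 23349828, a span of 160259 bp. It had no interval in R4, R5 and R6, none in C1, 2 in C2 and 1 in C3. The place that recurred was chr7:23508101-23508161, near the start of the gene, which was listed with the same first and last base in C2 and C3. It was 61 bp long and began 1925 bp from the 5′ end of the span.

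This 5′ IGF2BP3 interval was among the narrowest in the data. Intervals of 61 bp or less made up 0.517% of R4, 0.662% of R5 and 0.816% of R6, against 1.5% of C1, 2.07% of C2 and 1.16% of C3. Its score was 149 in C2, above 25.6% of intervals, and 79.45 in C3, above 4.44%. It therefore lay in the lower part of both lists by score.

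The other IGF2BP3 place was chr7:23351613-23352079, 467 bp long, and only C2 held it. It lay 1785 bp before the 3′ end of the span, unlike the terminal interval of IGF2BP2, which reached that end. Its score of 191 was above 32.4% of the intervals of C2, and it was of about middling width there, wider than 46.0%. The 2 IGF2BP3 intervals of C2 were thus at opposite ends of the gene, 156021 bp apart, and covered 0.329% of the span. C3 covered 0.0381% of it.

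**Figure D2:**
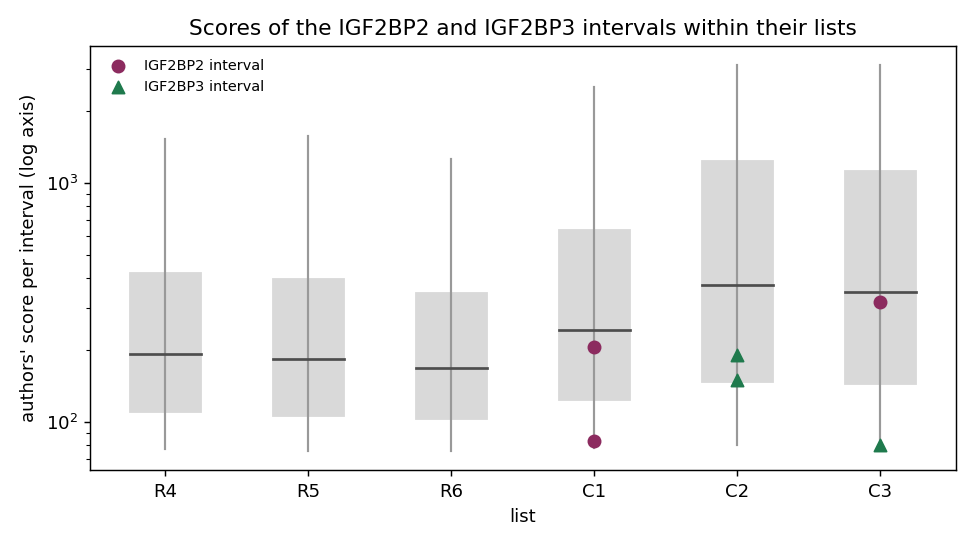
Scores of the 6 listed intervals (circles IGF2BP2, triangles IGF2BP3) on a log axis, over the scores of all intervals of each list, where boxes run from the 25th to the 75th percentile, the dark line is the median and the thin line runs from the 5th to the 95th percentile. Every IGF2BP2 and IGF2BP3 interval lies below the median of its own list, the nearest being the IGF2BP2 interval of C3 at 317.

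All 6 intervals scored below the median of the list that held them. That median was 242 in C1, 371 in C2 and 347 in C3. By quartile of score within the list, numbered from the lowest, 2 of the intervals fell in quartile 1 (the 132 bp interval of IGF2BP2 in C1 and the 61 bp interval of IGF2BP3 in C3) and 4 in quartile 2. None fell in quartiles 3 and 4.

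IGF2BP1 is on chromosome 17 (plus strand), where it spans 58734 bp between 47074774 and 47133507. No list held an interval on it, on either strand, or within 5 kb of it. The nearest intervals on either strand were 242 kb away in R4, 242 kb in R5 and 56.4 kb in R6, against 74.3 kb in C1, 74.3 kb in C2 and 69.3 kb in C3. The neighbourhood was not empty of intervals. The closest place held by all 6 lists was chr17:47374729-47376286 on the minus strand, 241 kb past the end of the gene. Its score there was above 54.1% of the intervals of R4, 24.9% of R5 and 58.2% of R6, and above 84.9% of C1, 64.3% of C2 and 57.5% of C3. At this place the ranks of the R and C lists overlapped, since R6 ranked it above C3.

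HNRNPA2B1 is compact, with a span of 10858 bp on the minus strand of chromosome 7 from 26240413 down to 26229556. It too had no interval on either strand or within 5 kb in any list. The nearest intervals on its own strand were 905 kb away in R4, 905 kb in R5 and 907 kb in R6, against 664 kb in C1, 894 kb in C2 and 664 kb in C3. R6 and C2 had an interval on the opposite strand 36.9 kb away. The closest place held by all 6 lists was chr7:27145809-27148339 on the minus strand, 905 kb from the gene. It is a chain of overlapping intervals. The R4 interval scored there (27145809-27146680) and the R6 interval (27147376-27148339) share no base, so the ranks below do not all belong to the same stretch. The best score there was above 7.15% of the intervals of R4, 42.2% of R5 and 33.7% of R6. It was above 78.5% of C1, 85.2% of C2 and 90.0% of C3, so here every C rank was above every R rank. The same held at the shared place nearest IGF2BP2, with C ranks of 88.2% to 89.0% and R ranks of 41.4% to 79.9%. At the shared place nearest IGF2BP3 it did not, since R5 (86.6%) ranked above C1 (75.6%). How many of all places held by 6 lists separate in this way was not counted. The separation was not tested and is not read as a result about HNRNPA2B1.

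IGF2BP2 and IGF2BP3 also had no intervals just outside their spans. On the gene's own strand the nearest interval to IGF2BP2 was 932 kb away in R4, 1660 kb in R5 and 135 kb in R6, against 109 kb in C1, 113 kb in C2 and 113 kb in C3. For IGF2BP3 it was 3610 kb away in each of R4, R5 and R6, against 296 kb in C1, 363 kb in C2 and 363 kb in C3. On either strand the nearest interval to IGF2BP3 was 109 kb away in R4, R6 and C2, 135 kb in R5 and 10.6 kb in C1 and C3. For IGF2BP2 it was 160 kb in R4, 1060 kb in R5 and 135 kb in R6, and in C1, C2 and C3 as on its own strand. These distances were not set against those of other genes, and the R lists are shorter. The distance at which an interval would count as a member was 0, so no gene had a near miss.

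**Figure D3:**
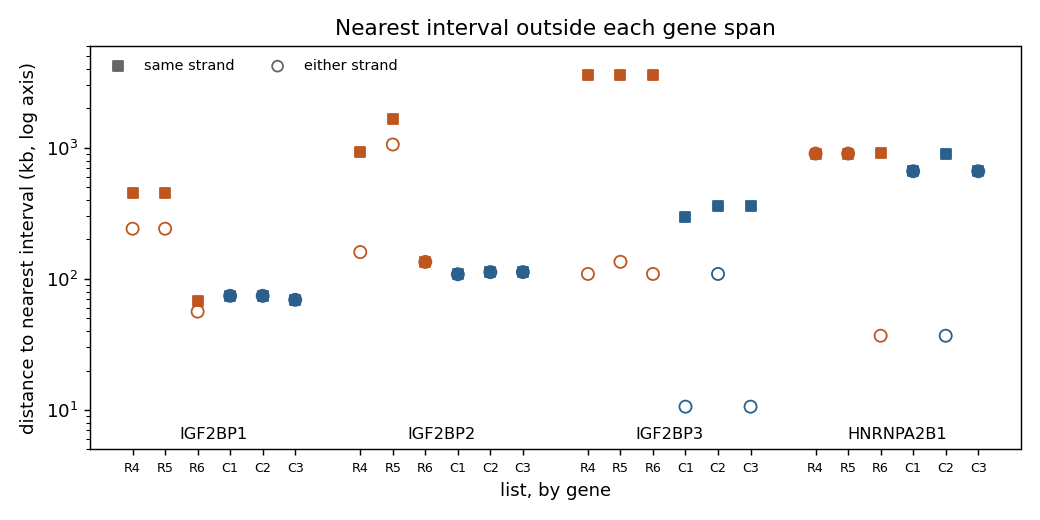
Distance in kb (log axis) from each gene span to the nearest interval outside it, for each list, on the gene's own strand (squares) and on either strand (circles); orange marks R4, R5 and R6 and blue marks C1, C2 and C3. No distance is below 10.6 kb, the value for IGF2BP3 in C1 and C3 on the opposite strand.

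Each peak name ends in a number, and within a chromosome this number rose from interval to interval in 100% of cases in every list. Many numbers are missing from that order. If numbers were given to calls in order, the missing ones would belong to calls outside the lists analysed here, which was not tested. Over whole lists, the intervals amounted to 1.12% of the highest number in R4, 0.702% in R5 and 1.14% in R6, against 10.7% in C1, 10.1% in C2 and 14.0% in C3. The larger skips in R4, R5 and R6 given next run through the whole lists and are not read as a result about these genes. Between the last interval before IGF2BP1 and the first one after it, 134 numbers were skipped in R4, 169 in R5 and 54 in R6, against 4 in C1, 21 in C2 and 6 in C3. The stretch concerned was 690 kb long in R4 and R5 and 357 kb in R6, against 375 kb in C1 and C2 and 369 kb in C3. For HNRNPA2B1 the skipped numbers were 634 in R4, 979 in R5 and 180 in R6, against 37 in C1, 44 in C2 and 19 in C3, over stretches of 942 to 3490 kb. Within IGF2BP3, 16 numbers were skipped between the 2 intervals of C2, and within IGF2BP2 a single number was skipped between the 2 of C1. What the missing numbers stand for at these genes is not known, and an empty span in a list does not show that the transcript lacks m6A.

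Set beside all places, the pattern of IGF2BP2 and IGF2BP3 was a common one. Intervals that overlapped between lists on the same strand were joined, which gave 20742 regions. All 6 lists held 8.30% of them, exactly 2 lists held 19.8% and exactly 1 list held 36.9%. Of the 4 places on IGF2BP2 and IGF2BP3, none was held by all 6, 2 were held by 2 lists and 2 by 1 list. None of the 4 was held by R4, R5 or R6, a pattern shared by 61.6% of all regions. Among regions held by 1 of C1, C2 and C3, the share missing from every R list was 88.8%, and among those held by 2 it was 70.3%. The absence of IGF2BP2 and IGF2BP3 from R4, R5 and R6 was thus near the background and is no result about these genes.

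The share of intervals found again in an R list was larger at higher scores. In score quartile 1, 19.4% of C1, 13.9% of C2 and 18.2% of C3 intervals were overlapped by an interval of R4, R5 or R6. In quartile 2 the shares were 32.5% in C1, 25.7% in C2 and 32.1% in C3. In quartile 4 they were 83.5% in C1, 80.6% in C2 and 86.2% in C3. The intervals of IGF2BP2 and IGF2BP3 belong to quartiles 1 and 2, where most intervals had no counterpart in an R list.

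**Figure D4:**
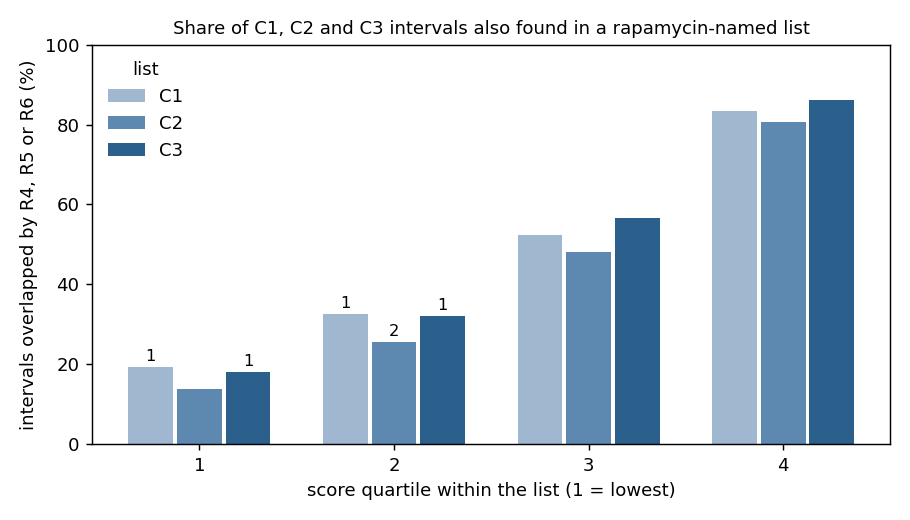
Percentage of the intervals of C1, C2 and C3 overlapped by at least 1 interval of R4, R5 or R6, by score quartile within the list (1 is the lowest). The digits over the bars count the IGF2BP2 and IGF2BP3 intervals in that quartile; the percentage is 13.9% to 19.4% in quartile 1 and 80.6% to 86.2% in quartile 4, and all 6 intervals stand in quartiles 1 and 2.

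The exact agreement of ends between lists was likewise ordinary. Of the pairs of overlapping intervals of C1 and C3, 65.6% had both ends equal, as the terminal interval of IGF2BP2 did. Of those of C2 and C3, 60.4% did, as the 5′ interval of IGF2BP3 did. How these ends lie relative to exons, the stop codon or the untranslated regions was not analysed here, and neither were sequence motifs.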

How the data were processed

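MeRIP-seq of H460 cells gave the 6 peak lists used here, which the authors deposited as text without a header line. Each line of a list is an interval with its position, a peak name, a score and a strand. The submitters' processing notes name the build hg19 and the aligner HISAT2 (version 2.0.4). The score is used as the authors deposited it, on a scale that no source used here states. The form of the peak names, per the file contents, is that of the MACS caller; its settings, and which IP and input libraries were set against each other for each list, are not stated either. Score minimums common to all lists were used only as alternatives. Depth is unknown, so no counting interval is given. Gene spans in hg19 came with the choice of the 4 genes, and every interval on them is described. The genes and comparisons were chosen with earlier results of these data known. Positions are 1-based. A percentile is the percentage of a list's intervals with a lower score or width. Intervals of different lists sharing at least 1 bp on the same strand were joined into regions. No test over lists was made. Other m6A reader genes were not analysed here, since no hg19 annotation was used. Python 3.11.15, pandas 2.3.3, numpy 2.4.6 and matplotlib 3.10.9 were used. The overlap code recovered 7 of 7 known values on simulated lists of 2000 intervals and matched bedtools 2.31.1 in 3 of 3 pairs of lists.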

Additional observations from a re-analysis of the deposited data

How the results depend on the processing

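IGF2BP1 and HNRNPA2B1 had no interval under any alternative run, no gene had a region in all lists, and the median covered length over lists was 0 bp for each gene throughout. Only ignoring strand or extending the spans could have added intervals, and the other runs could not have raised a count of 0. As IGF2BP2 and IGF2BP3 each had intervals in 2 lists only, their medians of 0 bp and lack of a region in all lists were fixed under those other runs too. Ignoring strand, extending the spans by 1 kb and asking for a reciprocal overlap of 50% changed none of the counts they were run on. At or above the pooled median score, IGF2BP2 kept 1 interval in 1 region and IGF2BP3 kept 0 intervals and 0 regions, against 3 intervals in 2 regions for each gene as deposited. This run puts the same cutoff, 260, on every list, although scores are otherwise not compared between lists. The terminal IGF2BP2 interval passed it in C3 (score 317, above 47.8%) and not in C1 (score 205, above 44.4%). With each list cut to its 4530 best scores, both genes had 0 intervals and 0 regions, which follows from their ranks. With scores of 100 or more, an alternative chosen after the data were seen, IGF2BP2 had 2 intervals in 1 region. IGF2BP3 then had 2 intervals in 2 regions. With each list left out in turn, both genes had 1 to 3 intervals in 1 to 2 regions (the interval counts were again added after the data were seen). The lowest values came without C1 for IGF2BP2 (1 interval, 1 region) and without C2 for IGF2BP3 (1 interval, 1 region). No paired analysis was possible because no list was put into an arm or tied to a pair of libraries.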
